A study of Mus musculus with 2 samples.

Results

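The cell cycle genes described here are 44 of the 31053 genes measured in each library, chosen by symbol from a list of proliferation genes and all found in both libraries. They comprise 21 S-phase genes, 21 genes of G2 and mitosis (G2/M), and Hmgb2 and Stmn1, which were put in neither list. The data are 2 single-cell RNA libraries of total mediastinal lymph node (MedLN) cells from wild-type C57/B6J mice with asthma induced by ovalbumin (OVA), a model antigen. The OVA library came from asthmatic mice without butyrate and the C4 library from asthmatic mice supplemented with butyrate, a short-chain fatty acid made by gut bacteria. All mice were 5 to 13 weeks old when used, received 50 µg OVA with alum intraperitoneally on days 0 and 7, were challenged intranasally on days 14 to 16, and were killed on day 17. Cells of 4 mice were pooled in each library, so 1 library stands for each condition, no test between conditions was possible, and the sources used here do not say by which route or at which dose the mice of the C4 library took butyrate.

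After filtering, 8774 cells of OVA and 8013 cells of C4 were kept, with 52572289 and 52224282 unique molecular identifiers (UMIs, counted molecules) and a median of 5075 and 5649 per cell. Only 25 cell barcodes occurred in both libraries. Cells were classed by marker UMIs into B cells (3994 in OVA, 3787 in C4), CD4+ T cells without Foxp3 (950 and 851), CD8+ T cells (1609 and 1648), Foxp3+ T cells (96 and 85) and Jchain+ cells (64 and 20), which leaves 2061 and 1622 cells without a class. Levels are UMIs of a gene per 1000000 UMIs summed over a class (CPM), and a log2 difference is C4 over OVA after adding 1 CPM to each. All intervals are 95% intervals of counting error, exact for levels, shares and ratios of summed UMIs. Those of single-gene ratios carry the exact binomial limits to the scale with 1 CPM added and are approximate. Those of ratios of shares use the same split of counts and are approximate where a share is large. For the balance between the lists a normal approximation was used. Intervals over UMIs treat each molecule as independent, whereas the molecules of these genes lay together in few cells. They are therefore too narrow as measures of sampling, and no interval over UMIs or over cells covers the spread between mice.

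Cells that divide make the machinery of each phase just before they use it. S-phase genes load and fire replication origins, unwind and copy DNA and make its building blocks, and are switched on by E2F factors at the start of the cycle. G2/M genes condense and separate chromosomes and are switched on later, by complexes that include MuvB and FOXM1. Their promoters often hold CHR elements and CCAAT boxes. In a lymph node draining an allergic lung the cells known to divide are germinal center B cells, plasmablasts, activated T cells and some regulatory T cells, among many resting lymphocytes.

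The promoters of both lists are shown because the letters they hold differ between the lists. RefSeq promoters on GRCm38.p6, each 250 bases before to 50 bases after a start, were found for 36 of the 44 genes and numbered 17 for the G2/M list and 20 for the S-phase list. Both strands were searched for the CHR letters TTTGAA, the CCAAT box CCAAT, and the E2F letters TTTCCCGC, TTTGGCGC, TTTCGCGC and TTTGCCGC. The CHR letters were in 12 of 17 G2/M promoters (70.6%), in 2 of 20 S-phase promoters (10.0%) and in 17.9% of all 32851 promoters. All 12 G2/M promoters with CHR letters also held a CCAAT box, a pair found in 6.95% of all promoters. E2F letters were in 8 of 20 S-phase promoters (40.0%), in 1 G2/M promoter, that of Cdk1, and in 2.26% of all promoters. CCAAT boxes were common to both lists, at 88.2% of G2/M and 65.0% of S-phase promoters against 37.4% of all. A match of letters is a description and not a bound site.

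The 180 bases before the start are given for 3 G2/M promoters rich in CHR and CCAAT copies, with those letters in capitals. Top2a held the most copies in that window, and Ccnb2 and Cdk1 tied for the next place with Mki67 and Ube2c, which are not shown. Top2a, the topoisomerase that untangles chromosomes, lies at chr11:99024190-99024369 (minus strand), Ccnb2, a mitotic cyclin, at chr9:70421555-70421734 (minus strand), and Cdk1, the mitotic kinase, at chr10:69352913-69353092 (minus strand). Within these 180 bases the CHR copies nearest the start began 23 bases before it in Top2a, 167 in Ccnb2 and 15 in Cdk1. The full Ccnb2 promoter held 2 CHR matches, and the window shows 1 of them.
Top2a: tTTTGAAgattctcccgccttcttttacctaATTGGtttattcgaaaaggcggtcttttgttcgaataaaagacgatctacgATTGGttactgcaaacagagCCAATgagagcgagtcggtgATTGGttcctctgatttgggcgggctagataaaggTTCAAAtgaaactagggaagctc
Ccnb2: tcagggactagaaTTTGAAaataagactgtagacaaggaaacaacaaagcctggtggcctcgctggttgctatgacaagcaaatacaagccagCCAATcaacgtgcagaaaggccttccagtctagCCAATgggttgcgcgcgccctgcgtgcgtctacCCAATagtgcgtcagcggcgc
Cdk1: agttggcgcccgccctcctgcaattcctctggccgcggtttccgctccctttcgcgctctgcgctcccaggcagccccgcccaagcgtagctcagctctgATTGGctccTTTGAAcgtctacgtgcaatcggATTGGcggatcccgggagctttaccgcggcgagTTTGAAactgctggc

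For the S-phase list the same window is given for 3 promoters with E2F copies, with the E2F letters in capitals, and Mcm7, which tied with Cdc6, is not shown. Mcm6 and Mcm5, both subunits of the replicative helicase, lie at chr1:128359706-128359885 (minus strand) and chr8:75109329-75109508 (plus strand), and Cdc6, which loads that helicase onto origins, at chr11:98907971-98908150 (plus strand). A pair of E2F matches overlapped in Mcm6, beginning 110 and 106 bases before the start, and likewise in Mcm5, at 153 and 149.
Mcm6: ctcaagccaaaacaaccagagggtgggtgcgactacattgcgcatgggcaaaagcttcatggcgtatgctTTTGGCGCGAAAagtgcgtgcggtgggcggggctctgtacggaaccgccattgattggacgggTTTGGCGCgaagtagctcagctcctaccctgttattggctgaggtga
Mcm5: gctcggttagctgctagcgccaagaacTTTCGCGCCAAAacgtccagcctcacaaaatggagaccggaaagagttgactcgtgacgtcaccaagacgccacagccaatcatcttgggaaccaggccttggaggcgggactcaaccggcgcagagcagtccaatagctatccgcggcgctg
Cdc6: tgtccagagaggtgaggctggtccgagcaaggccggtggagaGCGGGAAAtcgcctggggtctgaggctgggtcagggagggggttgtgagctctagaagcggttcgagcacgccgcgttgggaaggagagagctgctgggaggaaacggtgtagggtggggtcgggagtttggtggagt

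The G2/M genes were carried by very few cells. In OVA 5994 cells had no UMI of the 21 G2/M genes, 1856 had 1 and 503 had 2, and 139 had 20 or more. In C4 the counts were 5294, 1901 and 501 at the low end and 76 at 20 or more. In ranges that double in width, OVA had 54 cells with 5 to 9 UMIs, 18 with 10 to 19, 26 with 20 to 39, 39 with 40 to 79 and 37 with 80 to 159. C4 had 27, 18, 13, 19 and 21 cells in these ranges. On this doubling scale the counts of OVA rose from 18 at 10 to 19 UMIs to 39 at 40 to 79. Those of C4 fell to 13 at 20 to 39 and then rose to 21 at 80 to 159. Among ranges 10 UMIs wide up to 99 UMIs none held more cells than that of 10 to 19, so no gap divided the cells. The cells with 20 or more are called cycling cells below, a limit set after seeing these counts. Just beside the limit, 6 cells of each library had 18 to 21 UMIs. The richest 42 cells of OVA and 30 cells of C4 together held 50% of each library's G2/M UMIs. Cycling cells were deep, with a median of 23627 UMIs in OVA and 24201 in C4 against 5039 and 5618 in the other cells.

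**Figure D1:**
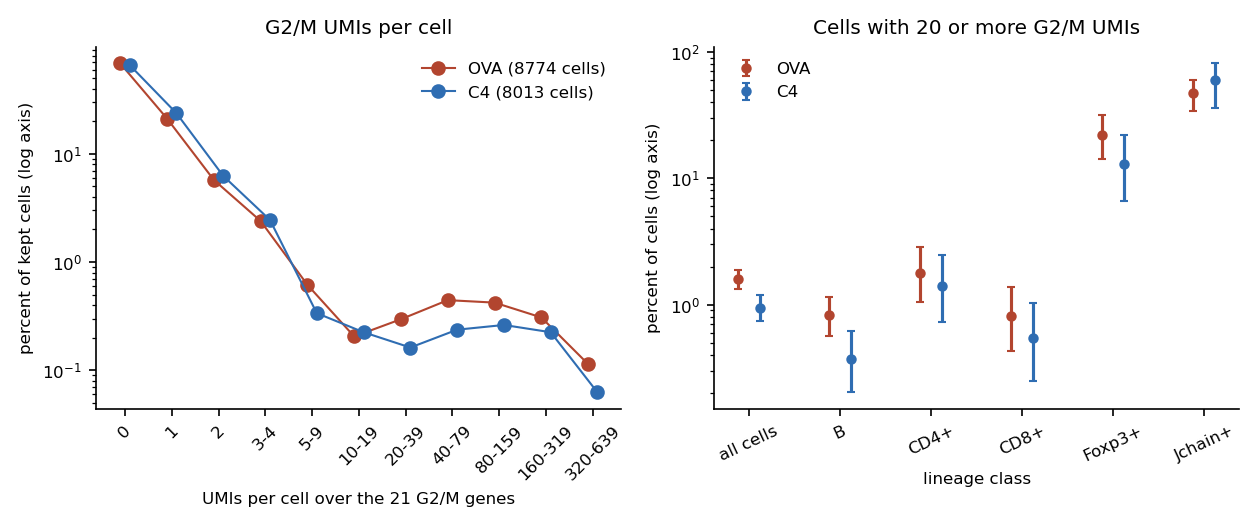
Left, percent of kept cells (log axis) by UMIs over the 21 G2/M genes per cell, for OVA and C4, in ranges that double in width from 5 UMIs up. At 10 to 19 UMIs the curves are at 0.205% in OVA and 0.225% in C4. OVA then rises to 0.4445% at 40 to 79 UMIs. C4 falls to 0.162% at 20 to 39 and rises to 0.262% at 80 to 159. Both fall in the highest ranges, with OVA above C4 from 20 UMIs on. Right, percent of cells with 20 or more G2/M UMIs (log axis) in all cells and 5 lineage classes, with exact 95% binomial intervals of counting error; it was 1.58% in OVA and 0.949% in C4 over all cells.

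Cycling cells made up 1.58% of the OVA cells (139 of 8774, 1.33 to 1.87%) and 0.949% of the C4 cells (76 of 8013, 0.748 to 1.19%), a log2 ratio of -0.74 (-1.16 to -0.33). They were less frequent in C4, and the interval of the ratio did not reach 0. After drawing 2000 UMIs at random from every cell, without the 101 and 57 cells that had fewer, 1.82% of OVA and 1.09% of C4 cells still had 3 or more G2/M UMIs. Without thinning the same limit of 3 UMIs gave 4.80% and 3.96%. In CD8+ cells with Ccr7 but without Cd44 UMIs, taken as resting, that limit was passed by 2.19% and 2.79% of cells unthinned and by 0.175% and 0.0819% after thinning, and this group still held 4 and 1 cycling cells. Doublet removal took 13 cycling cells of OVA and 18 of C4, and before any filter there were 156 and 95. Cells with 20 or more S-phase UMIs were likewise less frequent in C4, 152 cells (1.73%) against 100 (1.25%), a log2 ratio of -0.47 (-0.85 to -0.10). Both lists reached 20 UMIs in 114 cells of OVA and 64 of C4, the G2/M list alone in 25 and 12, and the S-phase list alone in 38 and 36. After thinning, 5 or more S-phase UMIs were found in 1.44% of OVA and 0.842% of C4 cells. Unthinned, that limit was passed by 5.88% and 6.98% of cells, and by 7.36% and 12.04% of the resting CD8+ group, whose median depth was 6684 and 7789 UMIs, so the unthinned share is read as background.

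Summed over all cells, both lists were lower in C4, the G2/M list more so. The G2/M genes summed to 408 CPM in OVA and 268 CPM in C4 (log2 -0.61, -0.64 to -0.58), and the S-phase genes to 526 and 446 CPM (log2 -0.24, -0.26 to -0.21). The balance of S-phase over G2/M was therefore higher in C4, by 0.37 on the log2 scale (0.33 to 0.41). In the resting CD8+ group the balance was also higher in C4, by 0.53 (0.36 to 0.70). That group had G2/M sums of 90.3 and 61.3 CPM and S-phase sums of 329 and 322 CPM. The cycling cells of this group, 4 in OVA and 1 in C4, held 43.1% and 16.2% of its G2/M UMIs. The group was therefore not free of dividing cells, and what set its balance was not tested. Of the 44 genes, 13 were at least 1.5-fold lower in C4 (11 G2/M and 2 S-phase genes) and 0 were at least 1.5-fold higher. Over all 13469 genes with at least 20 UMIs, 1.15% were that much lower and 0.475% that much higher. The median log2 difference was -0.64 for the G2/M list, -0.21 for the S-phase list and 0.02 for all genes. With 10 CPM added in place of 1, 0 members passed 1.5-fold. With every cell thinned to 2000 UMIs, the G2/M log2 ratio was -0.35, the S-phase log2 ratio -0.069, and 3 members were past 1.5-fold. The share over all genes past 1.5-fold was not computed with 10 CPM added or after thinning.

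The sums were split at the limit of 20 G2/M UMIs, which uses the G2/M UMIs themselves and so puts most of that sum above it. Of the 408 CPM of OVA, 329 CPM came from the cycling cells and 78.4 CPM from all others. Of the 268 CPM of C4 these parts were 192 and 75.4 CPM, so the cycling part differed by 137 CPM and the other part by 3.02 CPM. For the S-phase list, which the limit did not use, the cycling cells gave 259 CPM in OVA and 166 CPM in C4, and the other cells 267 and 280 CPM. Within the cells under the limit, the S-phase sum relative to their own UMIs was 288 CPM in OVA and 292 CPM in C4 (log2 0.02, -0.02 to 0.05). In these cells the G2/M sum was 84.5 CPM in OVA and 78.7 CPM in C4 (log2 -0.10, -0.17 to -0.04), and in B cells under the limit its log2 ratio was -0.14 (-0.23 to -0.05).

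**Figure D2:**
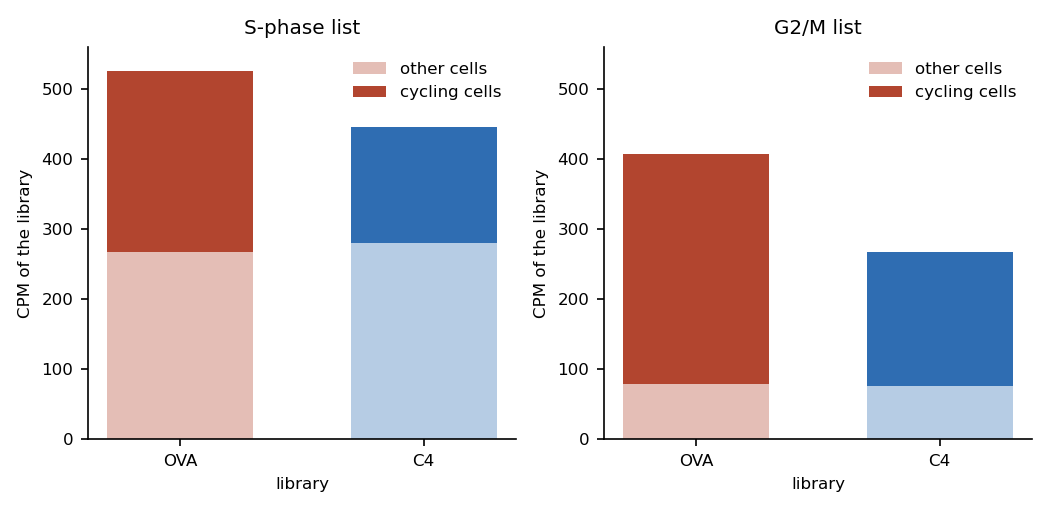
Summed CPM of the S-phase list (left) and the G2/M list (right) in each library, split into UMIs of cycling cells (dark) and of all other cells (pale). The cycling part of the G2/M list was 329 CPM in OVA and 192 CPM in C4, and the pale parts were 78.4 and 75.4 CPM.

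Inside the cycling cells of all classes together the G2/M levels were close in both libraries. The G2/M sum was 4575 CPM over the 139 cycling cells of OVA and 4565 CPM over the 76 of C4 (log2 -0.003, -0.04 to 0.03), and 9 of 21 genes were lower and 12 higher in C4. The limit of 20 G2/M UMIs sets a floor for that sum, and a cell with less G2/M RNA can fall below it and leave the group. The S-phase sum, which the limit did not use, was 3600 CPM in OVA and 3946 CPM in C4 (log2 0.13, 0.09 to 0.17), with 19 of 21 genes higher in C4. Split by class, the G2/M log2 ratio was 0.03 in cycling B cells and 0.06 in cycling CD4+, CD8+ and Foxp3+ cells together. In cycling Jchain+ cells it was -0.14 (-0.23 to -0.04). The S-phase log2 ratios of these groups were 0.22, 0.19 and 0.02. Fewer dividing cells and less RNA per dividing cell therefore cannot be told apart.

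How far a gene was confined to cycling cells differed widely within the S-phase list. For each gene the cycling cells were chosen without that gene's own UMIs. Over all genes, the cycling cells held 7.20% of the UMIs of OVA and 4.21% of those of C4. Pclaf, a PCNA-binding factor of DNA synthesis and repair, had 93.2% of its OVA UMIs in cycling cells, and Rrm2, the S-phase subunit of ribonucleotide reductase, had 89.2%. Cdc6 had 78.8%, Tk1, a thymidine salvage kinase, 74.6%, and Cdc45, a helicase cofactor, 74.3%. At the other end Cdt1, which loads the helicase with Cdc6, had 13.5%, Mcm4 25.3% and Pcna, the sliding clamp, 30.1%, all still above the share over all genes. Dut, which clears dUTP and had the most UMIs of the list, had 46.7% and was seen in 23.1% of the other OVA cells.

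The G2/M genes had a median of 91.1% of UMIs in cycling cells in OVA and 87.1% in C4. For the S-phase list the medians were 46.7% and 37.5%. The other G2/M genes took part in choosing the cycling cells, and the S-phase genes did not. The 38 cells of OVA and 36 of C4 with 20 or more UMIs of the S-phase list alone counted as other cells. How far this choice set the contrast between the lists was not tested. Of the G2/M genes Ccna2, the cyclin of S and G2, was the most confined, at 98.0% and 95.0%, and was seen in 0.139% and 0.214% of the other cells. Cenpa, the histone variant of centromeres, was the exception, with 34.4% and 22.8% in cycling cells and a UMI in 21.5% and 23.1% of the others. Hmgb2, a chromatin protein, was found in 61.0% of the other OVA cells but reached 3477 CPM in cycling cells against 238 CPM outside them, and Stmn1, which destabilises microtubules, reached 1009 against 31.9 CPM.

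**Figure D3:**
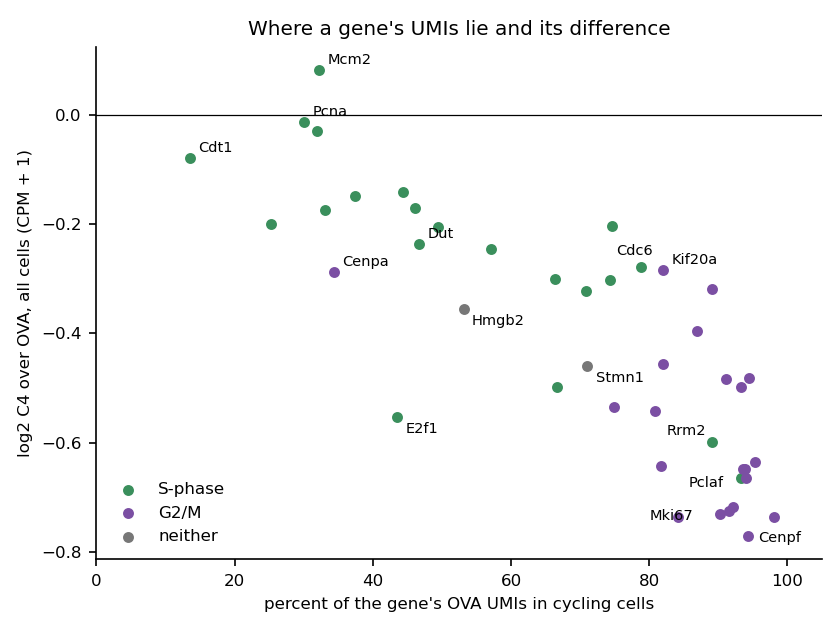
Each point is 1 of the 44 genes, by the percent of its OVA UMIs in cycling cells (x axis) and its log2 difference C4 over OVA in all cells (y axis, CPM + 1). The lowest values, such as those of Pclaf, Mki67 and Cenpf, lie at the right, and Pcna and Mcm2, at the left, lie near 0; both axes use the same OVA UMIs.

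Among the S-phase genes, the helicase subunits differed little between libraries over all cells. Mcm2 was at 19.4 CPM in OVA and 20.6 in C4 (log2 0.08), the 1 member above 0, and Mcm7 at 34.4 and 33.6 CPM (log2 -0.03). Mcm3, Mcm4, Mcm5 and Mcm6 lay between -0.20 and -0.14. The helicase loader Cdt1 was at 23.7 and 22.4 CPM (log2 -0.08, -0.19 to 0.03), whereas Cdc6 was at 3.23 and 2.49 CPM (log2 -0.28, -0.53 to -0.03). Cdc45 and Gins2, which complete the active helicase, were at -0.30 and -0.25. Pcna was at 34.1 and 33.8 CPM (log2 -0.01), although a processed copy, Pcna-ps2, is counted as a separate gene and could share its reads.

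The S-phase members past 1.5-fold with 1 CPM added were Pclaf and Rrm2. At a few CPM, as for E2f1 and Ccne2 below, the added 1 CPM draws a difference toward 0. Pclaf was at 62.7 CPM in OVA and 39.2 CPM in C4 (log2 -0.67, -0.74 to -0.59), and Rrm2 at 19.99 and 12.87 CPM (log2 -0.60, -0.73 to -0.47). Both are among the members most confined to cycling cells. E2f1, the factor that starts S-phase transcription, was at 5.33 and 3.31 CPM (log2 -0.55, -0.78 to -0.33) and Ccne2, an E-type cyclin that drives entry into S phase, at 2.74 and 1.65 CPM (log2 -0.50). The other E-type cyclin, Ccne1, was at 9.38 and 8.22 CPM (log2 -0.17), and Uhrf1, which copies DNA methylation to new strands, at 10.8 and 8.62 CPM (log2 -0.30). Among the nucleotide enzymes, Tyms, the thymidylate synthase, was at -0.32, Dut at -0.24, Rrm1, the constant reductase subunit, at -0.21 and Tk1 at -0.20, all lower in C4.

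All 21 G2/M genes were lower in C4 over all cells, though Ccnb1 and Aurka were above 0 after thinning to 2000 UMIs. Mki67, the Ki-67 antigen that coats mitotic chromosomes, was at 44.1 CPM in OVA and 26.2 CPM in C4 (log2 -0.73, -0.82 to -0.64), and was found in 261 and 156 cells. Top2a was at 53.5 and 33.9 CPM (log2 -0.64) and Cenpf, a kinetochore protein, at 17.01 and 9.56 CPM (log2 -0.77, -0.92 to -0.62), the lowest of the 44. Of the cyclin and kinase core, Cdk1 was at 15.98 and 9.32 CPM, Ccna2 at 11.5 and 6.51, and Ccnb2 at 13.3 and 7.66, all with log2 differences between -0.74 and -0.72. Ccnb1, the other B-type cyclin, was at 8.77 and 5.92 CPM (log2 -0.50). The remaining genes past 1.5-fold were Cenpe, a kinetochore motor (-0.74), Ube2c, the ubiquitin-conjugating enzyme of the anaphase-promoting complex (-0.66), Birc5, survivin of the chromosomal passenger complex (-0.64), and the spindle factors Nusap1 and Tpx2 (both -0.65).

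The kinases of the spindle and the checkpoint genes were lower by less than 1.5-fold with 1 CPM added. Plk1, the polo kinase, was at 6.18 and 4.14 CPM (log2 -0.48), Aurka, the kinase of spindle poles, at 6.22 and 3.98 (-0.54) and Aurkb, the passenger kinase, at 10.3 and 7.26 (-0.46). The checkpoint genes Bub1 and Bub1b were at -0.32 and -0.40, the spindle motors Kif11 and Kif20a at -0.48 and -0.28, and Cdc20, the activator of the anaphase-promoting complex, at -0.54. Several of these are at a few CPM, where the added 1 CPM draws a difference toward 0. Cenpa, the G2/M gene with the smallest share of UMIs in cycling cells, was at 71.6 and 58.4 CPM (log2 -0.29, -0.36 to -0.22). Hmgb2 was at 471 and 368 CPM (log2 -0.35) and Stmn1 at 102 and 74.1 CPM (log2 -0.46).

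**Figure D4:**
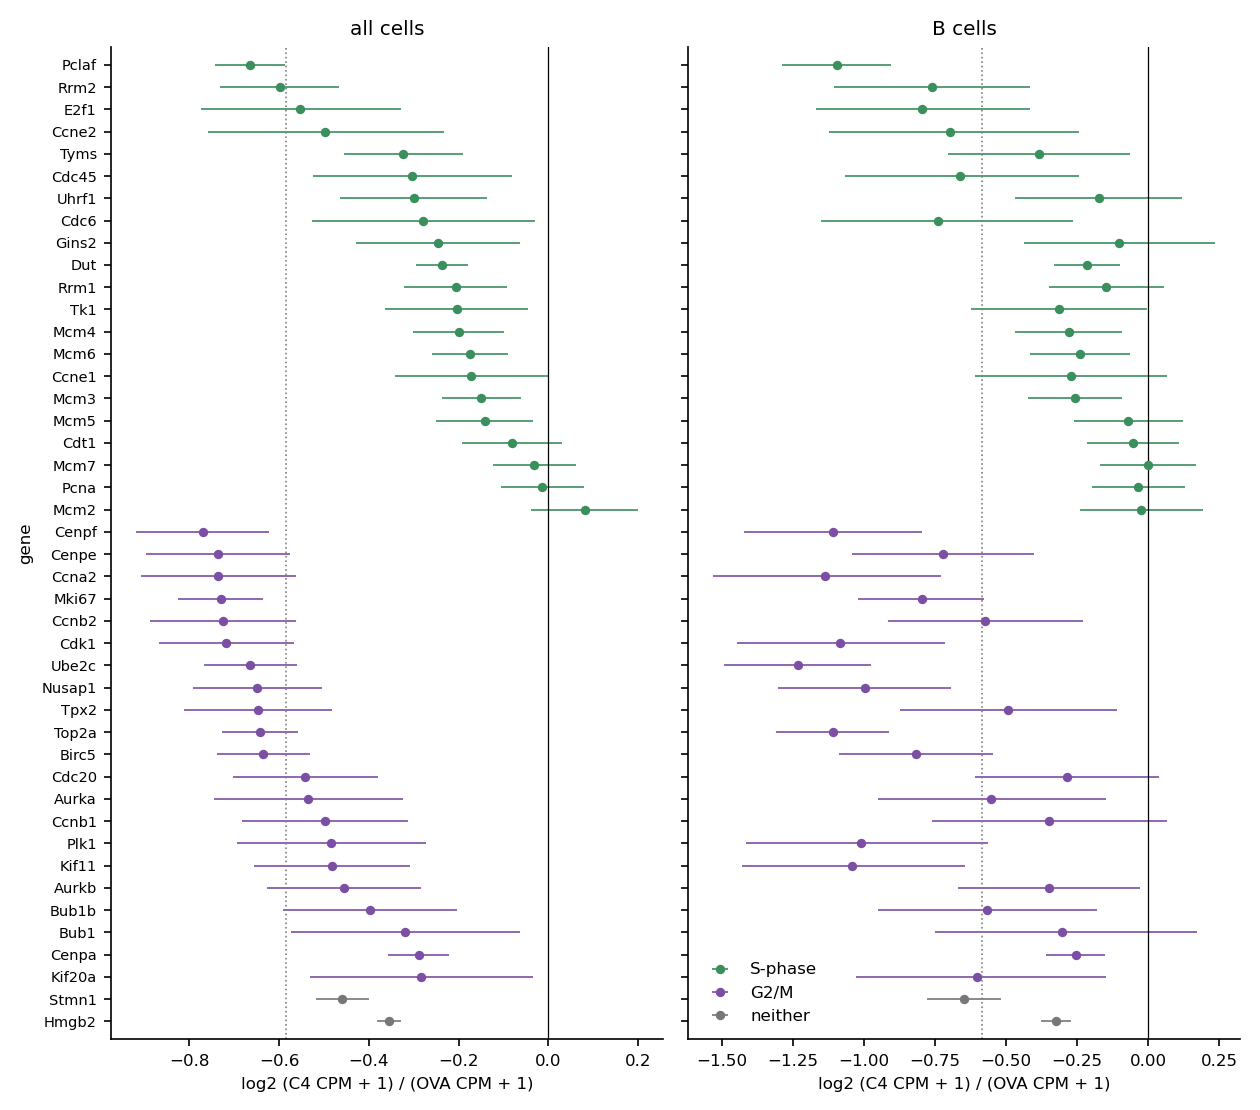
Log2 difference C4 over OVA (CPM + 1) of each of the 44 genes over all cells (left) and over B cells (right, with its own x scale), ordered by list and value. Bars are approximate 95% counting intervals over UMIs, the solid line is 0 and the dotted line 1.5-fold lower. The G2/M genes range from -0.77 to -0.28 over all cells and the S-phase genes from -0.67 to 0.08.

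In B cells, whose Cd79a UMIs set the class, all 44 members were below 0, but after thinning to 2000 UMIs 12 were above 0, 10 S-phase and 2 G2/M genes, and of these Gins2 was at least 1.5-fold higher. At least 1.5-fold lower in C4 were 19 of them, 12 G2/M genes, 6 S-phase genes and Stmn1, against 1.27% of all 11357 genes tested, and 0 were that much higher, against 0.572%. With 10 CPM added 3 were that much lower, and after thinning 7. The share over all genes was not computed for these settings. The G2/M sum was 246 CPM in OVA and 151 CPM in C4 (log2 -0.71) and the S-phase sum 365 and 304 CPM (log2 -0.26). Ube2c was the lowest member, at 17.6 and 6.91 CPM (log2 -1.23, -1.49 to -0.98), followed by Ccna2 at 4.65 and 1.57 CPM (log2 -1.14) and Top2a at 29.9 and 13.3 CPM (log2 -1.11). Pclaf was at 31.6 and 14.3 CPM (log2 -1.10), while Mcm7 and Mcm2 were at -0.002 and -0.03.

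Cycling B cells numbered 33 of 3994 in OVA (0.826%) and 14 of 3787 in C4 (0.370%), a log2 ratio of -1.16 (-2.18 to -0.22). Thinned to 2000 UMIs, 1.39% and 0.531% of B cells had 3 or more G2/M UMIs. Inside the cycling B cells the G2/M sum was 5094 CPM in OVA and 5193 CPM in C4 (log2 0.03, -0.07 to 0.13). Some markers of germinal center B cells were more frequent in cycling than in other B cells. Mef2b, a germinal center transcription factor, was found in 10 of 33 cycling B cells of OVA and 8 of 14 of C4 but in 4.09% and 4.64% of the other B cells, and Rgs13, a germinal center signalling regulator, in 6 and 6 cells against 0.707% and 0.636%. Bcl6, the repressor that sets the germinal center program, was found in 3 and 6 cells against 8.66% and 11.1%. Cycling B cells were also deeper, with medians of 15916 and 12671 UMIs, and the part of depth in these shares was not tested.

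Among CD4+ T cells without Foxp3 the lists went in opposite directions. The G2/M sum was 524 CPM in OVA and 312 CPM in C4 (log2 -0.75, -0.83 to -0.66), whereas the S-phase sum was 504 and 544 CPM (log2 0.11, 0.04 to 0.18), so the balance was higher in C4 by 0.86 (0.75 to 0.97). At least 1.5-fold lower were 13 members (12 G2/M genes and E2f1), against 3.04% of 9949 genes, and 2 were higher, against 2.74%. The higher ones were Cdc6, at 1.43 and 3.87 CPM, and Ccne1, at 5.38 and 9.15 CPM. Cenpf was the lowest, at 28.5 and 9.68 CPM (log2 -1.47, -1.89 to -1.05), then Ube2c at 59.2 and 23.8 CPM (log2 -1.28). These sums rest on 17 cycling cells in OVA and 12 in C4, the richest of which held 13.1% and 18.1% of the G2/M UMIs of the class. The share of cells with 3 or more G2/M UMIs was not lower in C4. It was 3.68% in OVA and 4.47% in C4 (log2 0.28, -0.42 to 0.98), and 1.59% and 1.65% after thinning. Thinned to 2000 UMIs, the G2/M log2 ratio was -0.31, the balance 0.45 and 2 members were at least 1.5-fold lower. With 10 CPM added, 7 were lower and 0 higher. The share over all genes was computed for neither setting. With the classes set from thinned counts the G2/M log2 ratio was -1.95 and the S-phase one -0.34, so the S-phase direction turned under that rule. The log2 ratio of the share of cycling cells was then -2.38, and its interval of -7.9 to 0.67 shows that few cycling cells were left. With classes set at full depth the share of cycling cells (1.79% and 1.41%) had a log2 ratio of -0.34 with an interval of -1.54 to 0.81.

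CD8+ T cells held 13 cycling cells in OVA (0.808%) and 9 in C4 (0.546%). The G2/M sum was 183 and 140 CPM (log2 -0.39) and the S-phase sum 435 and 385 CPM (log2 -0.18). At least 1.5-fold lower were 5 members, Rrm2, Pclaf, Ube2c, Ccnb2 and Cenpe, against 1.76% of all genes, and 0 were higher, against 0.824%. Rrm2 was the lowest, at 10.4 and 5.28 CPM (log2 -0.86). With classes set by 1 UMI of a marker and none of the other lineage the log2 ratios turned to 0.04 for the G2/M list and 0.02 for the S-phase list, and with classes from thinned counts to 0.42 and 0.01. Thinned to 2000 UMIs the G2/M log2 ratio was -0.0067.

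Foxp3+ T cells, in which Ctla4, a checkpoint receptor of regulatory T cells, was found in all 32 cycling cells of both libraries, had the highest S-phase and G2/M levels of the T cell classes. Ikzf2, a marker of regulatory T cells, was in 20 of 21 cycling cells of OVA and 11 of 11 of C4, and Il2ra, another, in 15 and 10. The B cell marker Cd79b was in 9 and 7 of them. Lyz2 (74 UMIs) and C1qa (62 UMIs), both myeloid markers, were each found in 1 cycling cell of OVA. Whether these UMIs came from doublets or free RNA was not tested. The G2/M sum was 2820 CPM in OVA and 2570 CPM in C4 (log2 -0.13) and the S-phase sum 2817 and 2252 CPM (log2 -0.32). Cycling cells were 21 of 96 (21.9%, 14.1 to 31.5%) and 11 of 85 (12.9%, 6.64 to 21.98%), with a log2 ratio of -0.76 whose interval, -1.96 to 0.36, held 0. Members at least 1.5-fold lower were 3 (Ccne2, E2f1 and Ccnb2), against 8.08% of all genes, and 0 were higher, against 7.45%. With classes set by 1 UMI of a marker and none of the other lineage, 13 were lower and 1 higher. The log2 ratios were then -0.34 for the G2/M list and -0.47 for the S-phase list. The share over all genes was not computed for that rule. Mki67 was at 320 and 315 CPM. A single Foxp3 UMI set this class, and deeper cells meet that rule more often, so its share of cycling cells is not that of all regulatory T cells.

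Jchain+ cells, with at least 10 UMIs of the antibody joining chain, were 64 in OVA and 20 in C4, and 30 (46.9%) and 12 (60.0%) of them were cycling. The G2/M sum was 2199 and 2358 CPM (log2 0.10) and the S-phase sum 2007 and 2386 CPM (log2 0.25), both higher in C4, unlike in the B, CD8+ and Foxp3+ classes. At least 1.5-fold higher were 6 members (Mcm4, Mcm5, Mcm7, Tk1, Kif20a and Nusap1), against 18.8% of 6451 genes, and 2 were lower (Cdc20 and Aurka), against 10.1%, and the median of all genes in this class was 0.14. A single cell held 39.5% of the G2/M UMIs of the C4 class, and without the richest cell of each library the G2/M log2 ratio was -0.26. Scaled without ribosomal, mitochondrial and immunoglobulin genes it was -0.01 and thinned to 2000 UMIs -0.12. With classes from thinned counts the log2 ratios were -1.51 for the G2/M list and -1.36 for the S-phase list. The G2/M direction held in 8 of 12 alternatives. The S-phase direction held in 11 of 12 and turned only with classes from thinned counts.

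The cycling Jchain+ cells carried germinal center markers beside plasma cell genes. In OVA, Mef2b was found in 24 of 30 cycling and 9 of 34 other Jchain+ cells and Rgs13 in 20 and 2. Sdc1, the plasma cell surface proteoglycan CD138, went the other way, in 10 of 30 cycling and 25 of 34 other cells. In C4, Mef2b was in 8 of 12 cycling and 5 of 8 other cells, Rgs13 in 6 and 3, and Sdc1 in 2 and 4. The germinal center marker S1pr2 was in 17 of 30 cycling and 3 of 34 other cells of OVA. It went the other way in C4, in 5 of 12 and 5 of 8. Median depth of the OVA cells was 28626 UMIs in the cycling and 23523 in the other Jchain+ cells. In C4 these medians were 23886.5 and 25408.5 UMIs.

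**Figure D5:**
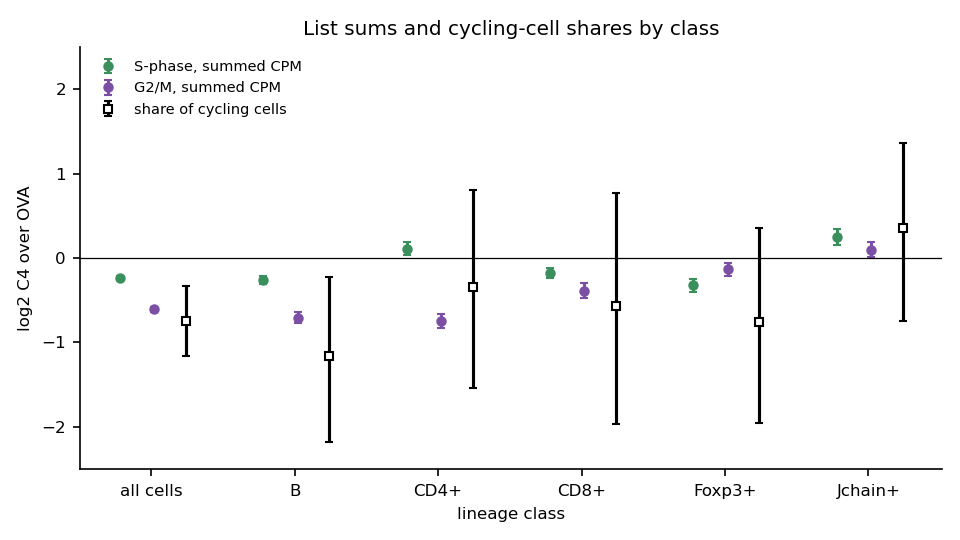
Log2 C4 over OVA of the summed S-phase and G2/M CPM (filled points, 95% counting intervals over UMIs) and of the share of cycling cells (open squares, 95% counting intervals over cells), in all cells and 5 lineage classes. The share intervals of all cells (-1.16 to -0.33) and B cells (-2.18 to -0.22) lie below 0 and those of the other 4 classes cross it.

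Of all cycling cells, 33 in OVA and 14 in C4 were B cells, 17 and 12 CD4+, 13 and 9 CD8+, 21 and 11 Foxp3+, 30 and 12 Jchain+, and 25 and 18 had no class. Each of these groups held fewer cycling cells in C4, from 8013 kept cells against 8774. The B and Jchain+ classes together gave 63 of 139 and 26 of 76. The Foxp3+ and Jchain+ classes, with 1.82% of the OVA and 1.31% of the C4 cells, gave 51 and 23 cycling cells, and the CD4+ and CD8+ classes together gave 30 and 21.

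Other genes of the cycle are given by role, beside the 1.15% of all genes lower and 0.475% higher by 1.5-fold over all cells. Of 6 cyclins and kinases that act before S phase, 0 differed by 1.5-fold, with a median log2 of 0.049. Ccnd2, a D-type cyclin found in over 50% of cells, was at 279 and 257 CPM, and its partner Cdk4 at 69.5 and 73.1 CPM. Of 8 inhibitors and pocket proteins 0 differed, with a median of -0.070, and with Cdkn1b, the inhibitor p27 of quiescent cells, at 125 and 111 CPM. Of 11 regulators 0 passed 1.5-fold, with a median log2 of -0.28. Foxm1, the G2/M transcription factor, was at 2.59 and 1.63 CPM (log2 -0.45). Of 5 origin firing genes 0 passed, with a median of -0.15. Of 10 kinetochore and passenger genes, with a median of -0.35, 3 were lower, Spc24 (-0.60), Ttk (-0.60) and Cdca8 (-0.65), all 3 with roles at the mitotic kinetochore or centromere. For groups this small, 0 past 1.5-fold is near the share over all genes, and nothing is read from it.

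The non-members most like the G2/M list, by their excess in cells with 3 or more G2/M UMIs over the other cells in both libraries, included many mitotic and histone genes. In B cells Cdca3, a trigger of mitotic entry, led with 71.0 CPM in high and 0.538 CPM in other cells of OVA and 51.4 and 1.40 CPM in C4. It was followed by Cdca8, Kif23 and Basp1, a membrane protein, and Ighg1, the IgG1 heavy chain, was also among the 10. In T cells the replication-dependent histone Hist1h1b led, at 1328 and 3.31 CPM in OVA and 1042 and 3.13 CPM in C4, and 4 more histone genes were among the 10.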

How the data were processed

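Single-cell 3′ libraries (10x chemistry version 3) of total MedLN cells were made into UMI counts per gene and cell by the authors with Cell Ranger 6.0.1, and the submitters' processing notes name mm10. The deposited values were raw counts, 1 matrix per library, with no normalization. From these, 186 OVA and 327 C4 cells were dropped for mitochondrial UMIs above 10% or fewer than 200 genes, then the 721 and 592 cells ranked highest by Scrublet in scanpy 1.11.5 (a rate of 0.8% for every 1000 cells); a UMI of free RNA can still lie in a cell that does not express the gene. Jchain+ cells were taken first and had at least 10 Jchain UMIs and no Cd3e. B cells were other cells with at least 2 Cd79a UMIs and no UMI of Cd3e, Cd4 or Cd8a. T cells had Cd3e and at most 1 Cd79a, and were split by Cd4, Cd8a and Foxp3. UMIs were summed per class and library and divided by the class total. Genes with at least 20 UMIs over both libraries were compared, with 1.5-fold as the limit. With 1 library per condition no test was made. Shares have Clopper-Pearson intervals, and ratios have intervals from the exact binomial split of the counts. For single genes these were carried to the scale with 1 CPM added, which is approximate. The balance between the lists has intervals from a normal approximation. These cover counting error only.

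Ratios were checked on counts simulated for B cells with molecules drawn independently, and the intervals only for ratios without the added 1 CPM. That check cannot show the effect of molecules that lie together in few cells. All 44 members are named, the related genes by counts with examples and the non-members by the 10 largest values. The members, lists and classes were chosen with earlier results of these data known, and the limit of 20 G2/M UMIs and the marker rule for resting CD8+ cells were set after seeing the counts. Some marker genes are not reported here. Promoters are RefSeq's, with 8 members unmatched. Python 3.11.15, numpy 2.4.6 and scipy 1.17.1 were used.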

Additional observations from a re-analysis of the deposited data

Results flagged for a closer look

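The log2 ratio of the S-phase sum was above 0 in CD4+ cells (0.11) and Jchain+ cells (0.25) and below 0 in B, CD8+ and Foxp3+ cells, with counting intervals over UMIs that did not reach 0 in any of these classes. That of the G2/M sum was above 0 in Jchain+ cells (0.10) and below 0 in the B, CD4+, CD8+ and Foxp3+ classes. The opposite directions drew attention, and the differences between classes were not tested, since each condition had 1 library. The CD4+ value rests on 17 cycling cells in OVA and 12 in C4, and the Jchain+ values on 30 and 12. The Jchain+ G2/M ratio lay below the median of all genes in that class (0.14). It was -0.26 without the richest cell of each library and kept its direction in 8 of 12 alternatives.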

How the results depend on the processing

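The lower share of cells with 20 or more G2/M UMIs kept its direction over all cells (-0.75 to -0.55 over 9 alternatives, main -0.74) and in B cells (-1.40 to -0.89, main -1.16), and the G2/M sum kept it in all 12 alternatives in both. Values below are log2 ratios C4 over OVA outside the counting interval of the main value, and the cause was not tested unless the alternative itself removes cells or genes. Alternatives chosen after seeing the data were the limit of 20 UMIs, classes from thinned counts, cells under 20 G2/M UMIs and the sums without Dut or Cenpa.

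Without doublet removal the S-phase sum was -0.18 over all cells and -0.21 in B cells and the G2/M sum -0.55 and -0.62. With Scrublet's own threshold the S-phase sum was -0.20 and -0.20, and the G2/M sum of B cells -0.63. At most 5% mitochondrial UMIs gave B cells a G2/M sum of -0.89 and a balance of 0.64. Classes by 1 UMI and none of the other lineage gave B cells -0.21 (S-phase) and -0.64 (G2/M), and turned CD8+ cells to 0.017 and 0.044, with a balance of -0.027. The same classes gave Foxp3+ cells -0.47 (S-phase) and -0.34 (G2/M). A limit of 3 Jchain UMIs gave B cells -0.19 for the S-phase sum and 0.55 for the balance, and Jchain+ cells a balance of -0.0069. Classes from thinned counts gave B cells a G2/M sum of -0.83, CD4+ cells an S-phase sum of -0.34, and CD8+ cells 0.014 (S-phase) and 0.42 (G2/M). They gave Foxp3+ cells an S-phase sum of 0.11 (-0.78 to 0.96) and Jchain+ cells -1.36 and -1.51. Few cycling CD4+ cells were left under this rule.

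Thinned to 2000 UMIs, which gives each cell equal weight, the S-phase sum was -0.069 and in B cells -0.020, the G2/M sum -0.35 and -0.45, the share of cells with 3 or more G2/M UMIs -0.74 and -1.39, and the balance 0.28. The members past 1.5-fold were then 3 lower over all cells, and 7 lower and 1 higher in B cells. Of the 44 genes, 9 were above 0 over all cells (1 without thinning), among them Mcm5 0.15, Tk1 0.16, Gins2 0.33, Ccnb1 0.14 and Aurka 0.11, and 12 in B cells (0 without thinning), among them Gins2 0.60, Mcm5 0.36, Ccnb1 0.34, Mcm3 0.028, Tyms 0.26, Tk1 0.28 and Ccnb2 0.15. In B cells the other alternatives put at most 4 genes above 0. Opposite directions were also found for the CD8+ balance (-0.12) and the Jchain+ G2/M sum (-0.12).

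Counting Hmgb2 and Stmn1 with the G2/M list gave a G2/M sum of -0.47 and in B cells -0.50, a balance of 0.23 in both and -0.012 in Jchain+ cells, and turned the share at 3 UMIs to 0.047 and 0.015. That share was -0.045 and -0.18 at 2 UMIs, -0.67 over all cells at 5, and -0.74 and -1.16 at 20. Without Cenpa it was -0.55 over all cells, and the G2/M sum was -0.68 and -0.98. In cells under 20 G2/M UMIs the S-phase sum was 0.018 over all cells, -0.071 in B, 0.0021 in CD8+ and 0.45 in Foxp3+ cells. The Jchain+ G2/M sum was -0.011 scaled without ribosomal, mitochondrial and immunoglobulin genes and -0.26 without the richest cell. With a pseudocount of 10 CPM, 0 members were past 1.5-fold over all cells and 3 in B cells. The share of all genes past 1.5-fold was computed for none of the alternatives. No paired analysis was possible because each condition has 1 library, and none could be left out.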
